A study of Cavia porcellus with 72 samples.

Results

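The immediate early genes described here are 10 genes taken by symbol from the hippocampal count tables: *FOS*, *FOSB*, *JUNB*, *JUN*, *EGR1*, *EGR2*, *EGR3*, *NR4A1*, *NPAS4* and *ARC*. All 10 were present in the tables of F1, F2 and F3, which share 11446 genes, and all 10 had enough reads to be tested in each generation. The hippocampi came from juvenile female guinea pigs killed on postnatal day 40, descended through the paternal line from F0 pregnancies given betamethasone, a synthetic glucocorticoid (sGC), or saline vehicle (Veh). RNA-seq libraries came from 6 Veh and 5 sGC animals in F1, 6 and 6 in F2, and 6 and 7 in F3. By the study's methods the animals came from separate mothers, each mated with a single male, and were killed without prior stress. All animals were female, only the F0 pregnancies received an agent, and the glucocorticoid label of an F2 or F3 animal therefore refers to its ancestor.

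Immediate early genes are transcribed within minutes of a stimulus, without new protein synthesis, when calcium and kinase signals reach factors such as CREB and SRF that already sit at their promoters. In the hippocampus they mark neurons that have recently been active, and their transcripts are short-lived, so that a level in dissected tissue depends on what the animal met shortly before death. *FOS*, *FOSB*, *JUN* and *JUNB* encode subunits of the dimeric transcription factor AP-1. The EGR proteins are zinc finger factors, NR4A1 is an orphan nuclear receptor, and NPAS4 is a neuronal factor that responds to calcium entry. ARC is an effector at the synapse, where it takes part in the removal of AMPA receptors.

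Library totals ranged from 13507449 to 19767033 counted reads, so that *FOSB*, the member with the fewest reads, rested on 5 to 82 reads per library and *EGR1*, with the most, on 1390 to 4050. Levels are given as counts scaled to 1e+06 reads (CPM) with TMM scaling. The pyramidal and granule neuron genes *NEUROD6* and *PROX1* were detected in every library, at 101 to 170.6 and 85.9 to 142.6 CPM. Library numbers and the F2 table touch the results below. Library numbers 32 to 36 lie outside the runs of numbers of their generations, and all belong to sGC animals (2 in F1, 1 in F2 and 2 in F3). The F2 libraries also stood apart from those of F1 and F3 across the transcriptome, as described with the Veh animals.

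The first comparison asks whether the members differed between sGC and Veh offspring of the pregnant animals that were treated. In F1, 9 of the 10 members had lower mean levels in sGC animals, and none passed an adjusted p of 0.05 in edgeR's quasi-likelihood test. Of all genes tested in F1, 2.08% passed. The members' log2 fold changes had a median of -0.24, and those of all genes tested -0.01. Of all genes tested, 51.7% were lower in sGC animals. The members varied together between animals, as described below, so their directions are not independent observations in this or the later comparisons. At an unadjusted p below 0.05, 1 member (*JUN*) passed, where 19.6% of all genes did. The likelihood ratio test and DESeq2 also called no member.

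Among the AP-1 subunits, *FOS* was measured in the 5 F1 sGC libraries at 8.56, 3.88, 12.9, 5.94 and 5.35 CPM, and in the 6 Veh libraries from 7.09 to 14.05 CPM with a median of 9.91. Of the sGC libraries, 3 lay below the whole Veh range and 1 near its top. The log2 fold change was -0.47 ± 0.26 (SE), with a 95% interval from -1.02 to 0.09 and an adjusted p of 0.335. *FOSB*, whose protein has a truncated, long-lived splice form, stood at 1.89, 2.35, 4.61, 2.03 and 2.81 CPM in sGC libraries and between 2.83 and 5.58 CPM (median 3.63) in Veh libraries. Here 4 of 5 sGC libraries fell below the lowest Veh library (log2 fold change -0.44 ± 0.24, adjusted p = 0.320). *JUNB*, an AP-1 subunit that restrains JUN-driven transcription in many cells, was at 29.5, 24.3, 45.2, 27.2 and 25.5 CPM in sGC libraries against 29.3 to 45.5 CPM (median 37.0) in Veh libraries. Again 1 sGC library stood near the top of the Veh range, 3 lay below it and 1 just above its lower end, and the log2 fold change was -0.31 ± 0.15 (adjusted p = 0.266). *JUN* was at 74.9, 62.2, 65.7, 58.1 and 74.4 CPM in sGC libraries and from 66.7 to 79.5 CPM (median 76.1) in Veh libraries, a log2 fold change of -0.18 ± 0.07 with an interval from -0.32 to -0.03 and an adjusted p of 0.177. Unlike the other AP-1 subunits, *JUN* was not highest in sGC replicate 3.

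The EGR genes and nuclear factors showed the same single high library. *EGR1* was at 132, 96.5, 195, 98.0 and 107 CPM in F1 sGC libraries and from 117 to 152 CPM (median 144) in Veh libraries. Its sGC replicate 3 was thus above, and 3 others below, every Veh library, and the log2 fold change was -0.15 ± 0.16 (adjusted p = 0.617). *EGR2* stood at 4.15, 1.86, 7.59, 2.59 and 3.36 CPM in sGC libraries against 3.97 to 6.68 CPM (median 4.43), a log2 fold change of -0.36 ± 0.29 (adjusted p = 0.517). *NR4A1* was at 11.6, 7.28, 21.2, 11.9 and 9.95 CPM against 11.8 to 25.9 CPM (median 15.96), a log2 fold change of -0.46 ± 0.24 (adjusted p = 0.307). For both, the groups overlapped and sGC replicate 3 was the highest of its group. *EGR3*, which acts in synaptic plasticity, and *ARC* had log2 fold changes of -0.04 ± 0.11 and -0.08 ± 0.18. The exception in direction was *NPAS4*, with means of 3.39 ± 1.78 CPM (SD, n = 5) in sGC and 3.11 ± 0.60 CPM (SD, n = 6) in Veh animals and a log2 fold change of 0.13 ± 0.26, where sGC replicate 3 held 6.46 CPM and the other sGC libraries 2.03 to 3.29 CPM.

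**Figure D1:**
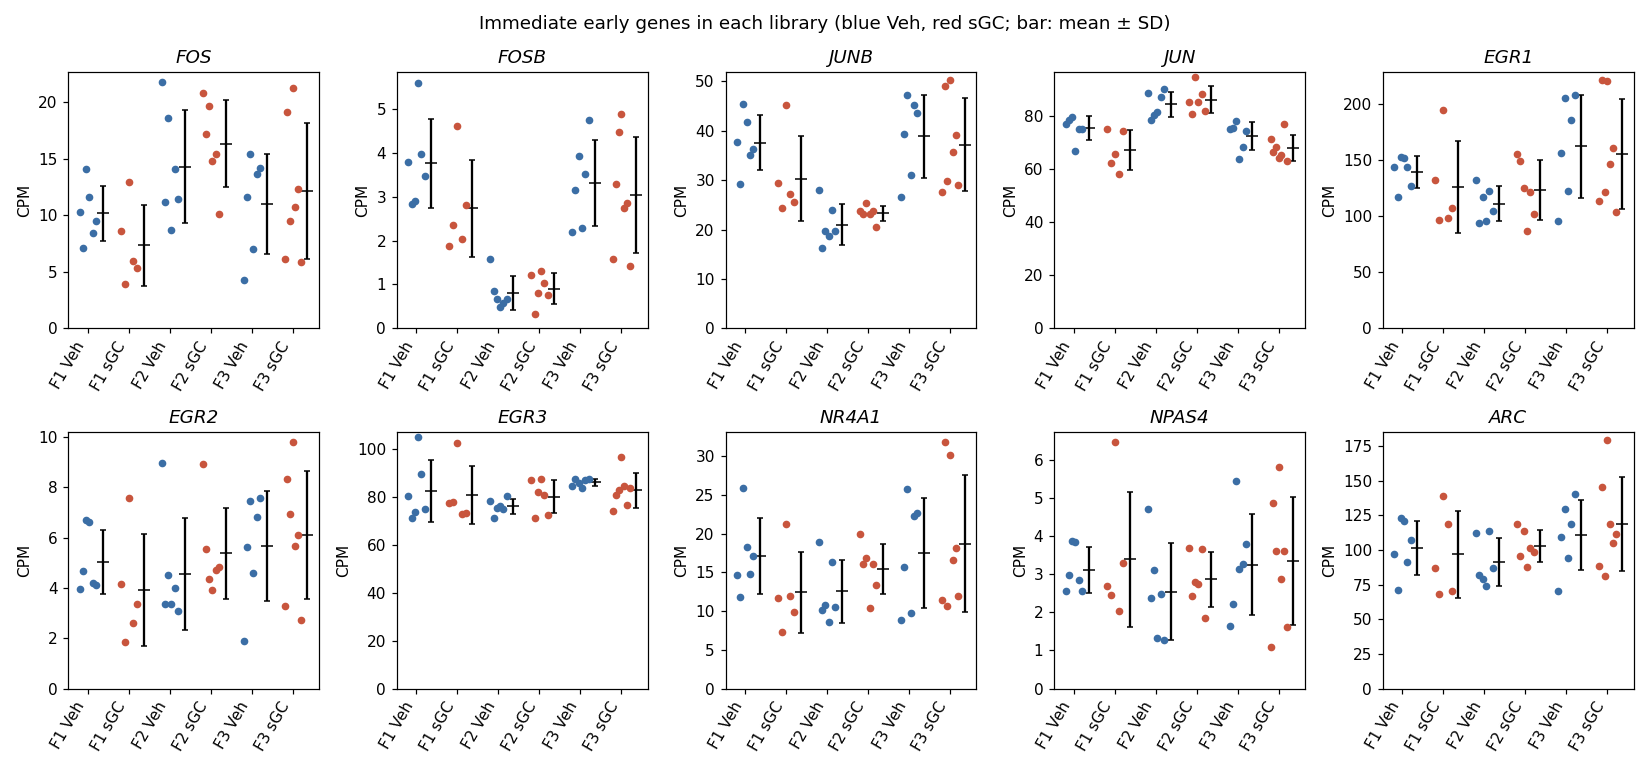
Level of each immediate early gene in each of the 36 libraries (CPM, linear axis from 0), by generation and group, with the mean and SD beside each group. In F1, sGC replicate 3 lies above the other sGC libraries for 9 of the 10 genes, and *FOSB* reaches at most 1.57 CPM in F2.

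The F1 result depended on that library, which was singled out because it was the highest sGC library for most members. Its removal therefore had to lower the sGC means of those members. Of 11 fits that each left out 1 F1 library, only this 1 brought a member past the threshold. Over these fits 56 to 342 of all genes passed, against 237 with every F1 library kept. The share of all genes that passed without sGC replicate 3 is not given here. Without F1 sGC replicate 3, all 10 members were lower in sGC animals, and *JUNB* passed the threshold at -0.51 (adjusted p = 0.0481, edgeR). *FOS* then stood at -0.78 (adjusted p = 0.1003), *NR4A1* at -0.76 (0.0932), *EGR2* at -0.77 (0.118), *FOSB* at -0.72 (0.104) and *EGR1* at -0.37 (0.0891), all adjusted values in edgeR's test. The sign of *NPAS4* turned to -0.25. Without libraries 32 and 35, the F1 animals numbered outside their run, the fold changes of *FOS*, *FOSB* and *JUNB* were instead smaller, at -0.27, -0.33 and -0.19, and *EGR1* and *EGR3* changed sign to 0.02 and 0.06. In bulk tissue, fewer cells that express a gene and less RNA per cell cannot be told apart. Of the marker genes of other cells and regions, 3 passed in F1. The meningeal fibroblast genes *DCN* (-0.995, adjusted p = 0.0494) and *LUM* (-0.50, adjusted p = 0.0258) were lower in sGC animals. *RORA*, from the thalamic list, was higher (0.37, adjusted p = 0.00434). Of the 6 genes of that list, however, 4 were lower and 2 higher (list median -0.03). The 6 astrocyte markers all had higher means in sGC animals (median log2 fold change 0.24), 4 of them at an unadjusted p below 0.05 and none past the threshold. In sGC animals 7 of 8 hippocampal neuron markers were lower (median -0.09), 5 of 6 interneuron markers (-0.13) and 3 of 3 oligodendrocyte markers (-0.29). Microglia markers were higher in 4 of 5 (median 0.17) and endothelial markers in 4 of 6 (0.03). None of the astrocyte, hippocampal neuron, interneuron, oligodendrocyte, microglia or endothelial markers passed the threshold. The summed level of the 5 meningeal genes measured ran from 135 to 197 CPM in sGC and from 153 to 314 CPM in Veh libraries. The part of these markers in the members' levels was not tested.

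In F2, the grandoffspring of the treated pregnancies, all 10 members had higher mean levels in sGC than in Veh animals, and none passed the threshold. The median log2 fold change was 0.17 against -0.0004 over all genes, of which 49.7% were higher in sGC animals. No gene of the 11414 tested passed (0%), while 758 (6.64%) had an unadjusted p below 0.05, none of them a member, and the likelihood ratio test and DESeq2 called 6 and 10 genes. *NR4A1* had the largest estimate, 0.31 ± 0.18, with a 95% interval from -0.07 to 0.70 and means of 15.5 ± 3.23 CPM (SD, n = 6) in sGC and 12.6 ± 4.09 CPM (SD, n = 6) in Veh animals. *FOS* ranged from 10.1 to 20.8 CPM (median 16.3) in sGC and from 8.70 to 21.8 CPM (median 12.7) in Veh libraries, so that the Veh range enclosed the sGC range. Its log2 fold change was 0.20 ± 0.20. *ARC* was at 88 to 119 CPM (median 99.8) in sGC and 74.2 to 114 CPM (median 84.3) in Veh libraries, with 0.17 ± 0.10. The remaining estimates lay between 0.03 for *JUN* and 0.25 for *EGR2*, and the smallest adjusted p of a member was 0.769.

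In F3, 5 members were higher and 5 lower in sGC animals, the median log2 fold change was -0.003 against 0.005 over all genes, and no member passed the threshold, where 5.04% of the 11359 genes tested did. No member had an unadjusted p below 0.05, against 21.1% of all genes. The estimates were small and their intervals wide. *FOS* changed by 0.15 ± 0.31, with an interval from -0.50 to 0.80, and its sGC libraries ranged from 5.87 to 21.2 CPM (median 10.7) where Veh libraries ranged from 4.22 to 15.4 CPM (median 12.6). *NR4A1* ranged from 10.7 to 31.9 CPM in sGC and from 8.83 to 25.8 CPM in Veh libraries, with 0.11 ± 0.29. *ARC* ran from 81.1 to 179 CPM in sGC and from 70.4 to 140.5 CPM in Veh libraries, with 0.10 ± 0.17. *FOSB* (-0.12 ± 0.26), *JUNB* (-0.06 ± 0.16), *EGR1* (-0.06 ± 0.20) and *EGR3* (-0.06 ± 0.05) were on the lower side. *JUN* had the smallest adjusted p of a member, 0.347 in edgeR's test, with an estimate of -0.09 and an interval from -0.21 to 0.02.

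**Figure D2:**
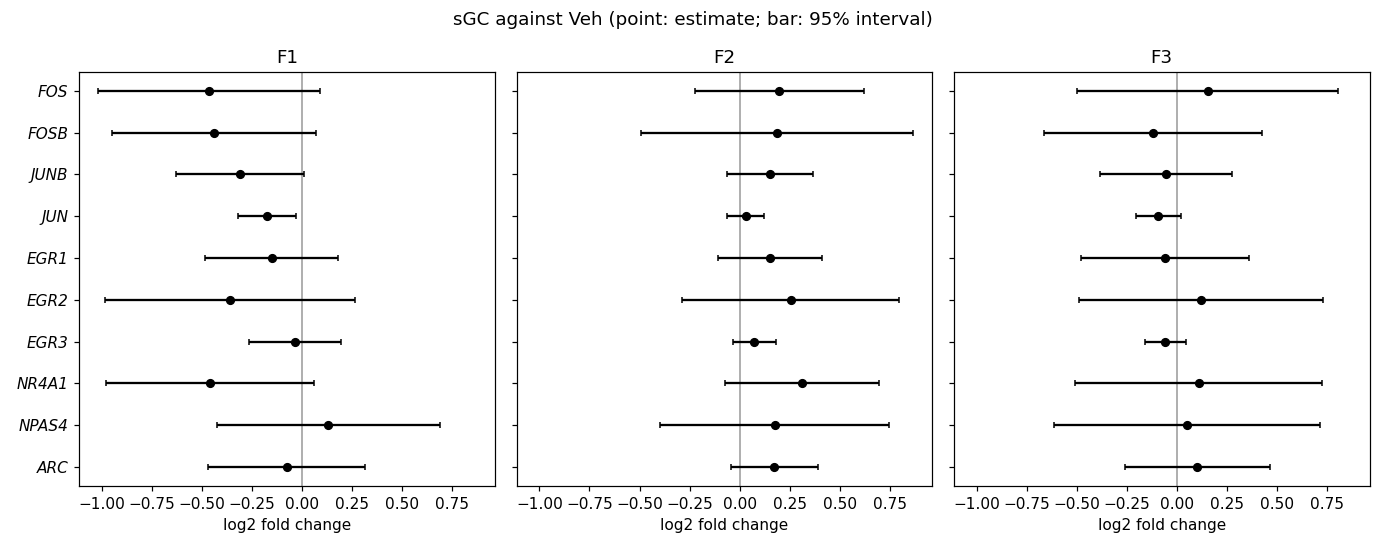
Log2 fold change of each immediate early gene in sGC against Veh animals of F1, F2 and F3, with 95% intervals from edgeR's quasi-likelihood fit. In F1 the estimates lie left of 0 for 9 genes, in F2 right of 0 for all 10, and in F3 around 0, and every interval except that of *JUN* in F1 includes 0. The genes varied together between animals, so their signs are not independent.

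Whether the sGC effect differed between generations was tested directly as an interaction over the 36 libraries. Between F2 and F1, the difference of the effects was above 0 for all 10 members and for 48.5% of all genes. Among the members it ran from 0.03 for *NPAS4* to 0.76 for *NR4A1*. None of the members passed the threshold, where 0.29% of the 11390 genes did. The smallest unadjusted p values were those of *JUN* (difference 0.20 ± 0.08, adjusted p = 0.221) and *JUNB* (0.46 ± 0.23, adjusted p = 0.313), both in edgeR's test. Only *JUN* of the members had an unadjusted p below 0.05, as did 16.8% of all genes. *FOS*, *FOSB* and *EGR2* differed by 0.65 ± 0.43, 0.62 ± 0.48 and 0.60 ± 0.46. Between F3 and F1 the differences ran from -0.09 to 0.61, and between F3 and F2 from -0.31 to -0.04, with 0 members and 0% of genes past the threshold in each, although 13.1% and 9.08% of genes had an unadjusted p below 0.05, and 0 members did. Neither DESeq2 nor the likelihood ratio test called a member in these contrasts. In the mean sGC effect over the 3 generations, which 8.53% of genes passed, members lay between -0.12 (*FOSB*) and 0.12 (*NPAS4*) and none passed. *JUN* alone had an unadjusted p below 0.05, as 24.6% of genes did, at -0.08 ± 0.03 (adjusted p = 0.146, edgeR).

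Among Veh animals, 2 AP-1 subunits, *FOSB* and *JUNB*, were lower in F2 than in F1 and F3. *FOSB* was at 2.83 to 5.58 CPM (median 3.63) in F1, at 0.48 to 1.57 CPM (median 0.67) in F2 and at 2.21 to 4.76 CPM (median 3.34) in F3. F2 did not overlap the other generations, and its level was 4.65-fold below F1 (log2 fold change -2.22 ± 0.32, adjusted p = 3.09e-07) and rose 4.12-fold in F3 against F2 (2.04 ± 0.32, adjusted p = 2.31e-06). In reads, the F2 Veh libraries held 8 to 23 *FOSB* reads and those of F1 51 to 80. *JUNB* went the same way, from 37.6 ± 5.60 CPM (SD, n = 6) in F1 to 21.02 ± 4.24 CPM in F2 and 38.9 ± 8.32 CPM in F3, with log2 fold changes of -0.84 ± 0.16 (adjusted p = 4.01e-05) and 0.89 ± 0.16 (adjusted p = 2.03e-05). Its highest F2 library (28.1 CPM) lay below the lowest of F1 (29.3 CPM) and above the lowest of F3 (26.5 CPM).

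*JUN* moved in the opposite direction and was slightly higher in F2, at 84.3 ± 4.84 CPM (SD, n = 6) against 75.3 ± 4.57 CPM in F1 and 72.5 ± 5.40 CPM in F3, with log2 fold changes of 0.16 ± 0.06 for F2 against F1 (adjusted p = 0.0225) and -0.22 ± 0.06 for F3 against F2 (adjusted p = 0.00269). The first of these calls was lost without F1 Veh replicate 4 (0.13, adjusted p = 0.0740), F2 Veh replicate 1 (0.14, 0.0535) or F2 Veh replicate 6 (0.14, 0.0620), again in edgeR's adjusted values. *FOS* had its highest mean in F2, 14.3 ± 4.98 CPM against 10.2 ± 2.45 CPM in F1 and 11.0 ± 4.43 CPM in F3, and passed in neither contrast (0.50 ± 0.29, adjusted p = 0.169, and -0.38 ± 0.29, adjusted p = 0.323). The number of *FOS* reads per *FOSB* read, which needs no scaling of libraries, was 2.08 to 4.82 in F1 Veh libraries and 1.91 to 3.91 in F3, and 13 to 27.4 in F2. In sGC libraries it was 1.65 to 4.53 in F1, 11.3 to 54 in F2 and 2.11 to 5.82 in F3, so that the F2 libraries of both groups lay above all others.

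Of the remaining members, *EGR1* was higher in F3 than in F2 (162 ± 45.9 against 111 ± 15.5 CPM, log2 fold change 0.55 ± 0.19, adjusted p = 0.0194), a call lost without F3 Veh replicate 3 (0.47, adjusted p = 0.0592) or 6 (0.46, adjusted p = 0.0603). *EGR3* did not overlap between F2 (71.2 to 80.4 CPM) and F3 (83.7 to 87.5 CPM), yet differed by 0.18 ± 0.08 with an adjusted p of 0.0684, and passed in 3 of the alternatives. *EGR2*, *ARC*, *NR4A1* and *NPAS4* passed in no contrast of Veh animals, with F2 means of 4.54, 91.2, 12.6 and 2.55 CPM beside F1 means of 5.04, 101.7, 17.1 and 3.11 CPM. In all, 3 of 10 members passed in F2 against F1, where 44.9% of 11390 genes passed, and 4 of 10 in F3 against F2, where 38% passed. In F3 against F1 no member passed and 0.0176% of genes did, with members between -0.17 (*FOSB*) and 0.22 (*EGR1*) and none at an unadjusted p below 0.05, which 7.7% of genes reached. The share of members that passed was near that of all genes, while *FOSB* moved further than 98.5% of genes between F2 and F3.

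Generation coincides with the table the libraries came from, so that generation and processing cannot be told apart. Library 33, an F2 sGC library with a number outside the F2 run, held *FOSB* at 0.758 CPM and *JUNB* at 20.6 CPM, as the other F2 libraries did, while libraries 32 and 35 of F1 held *FOSB* at 2.81 and 2.03 CPM and libraries 34 and 36 of F3 at 2.86 and 2.73 CPM. Genes outside the 10 also moved with F2, in both directions. Of 70 genes tested from the related pathway lists described below, 12 passed as higher and 14 as lower in F2 against F1 Veh animals. That was 37.1%, against 44.9% of all genes. *CREB1* had a mean of 29.55 CPM in F2 Veh and 20.02 CPM in F1 Veh animals, while the following genes were lower in F2. *GADD45B*, a growth arrest gene induced by neuronal activity, was at 193.5 ± 11.9 CPM (SD, n = 6) in F1 Veh, 5.90 ± 1.37 CPM in F2 Veh and 192.3 ± 13.85 CPM in F3 Veh animals, and *CEBPB*, an early transcription factor, at 17.02, 4.22 and 17.6 CPM. The AP-1 subunit *JUND* was also lower in F2 (-0.40 ± 0.05 against F1, adjusted p = 9.39e-09). The summed level of the 8 hippocampal neuron markers measured was 1740 to 1896 CPM in F2 Veh libraries, 2608 to 3009 CPM in F1 and 2668 to 2864 CPM in F3, largely through the vesicular glutamate transporter gene *SLC17A7*, which fell by 0.82 on the log2 scale in F2. *NEUROD2*, *WFS1* and *BCL11B* also passed as lower and the other 4 markers did not pass. The part of these markers in the *FOSB* and *JUNB* difference was not tested.

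**Figure D3:**
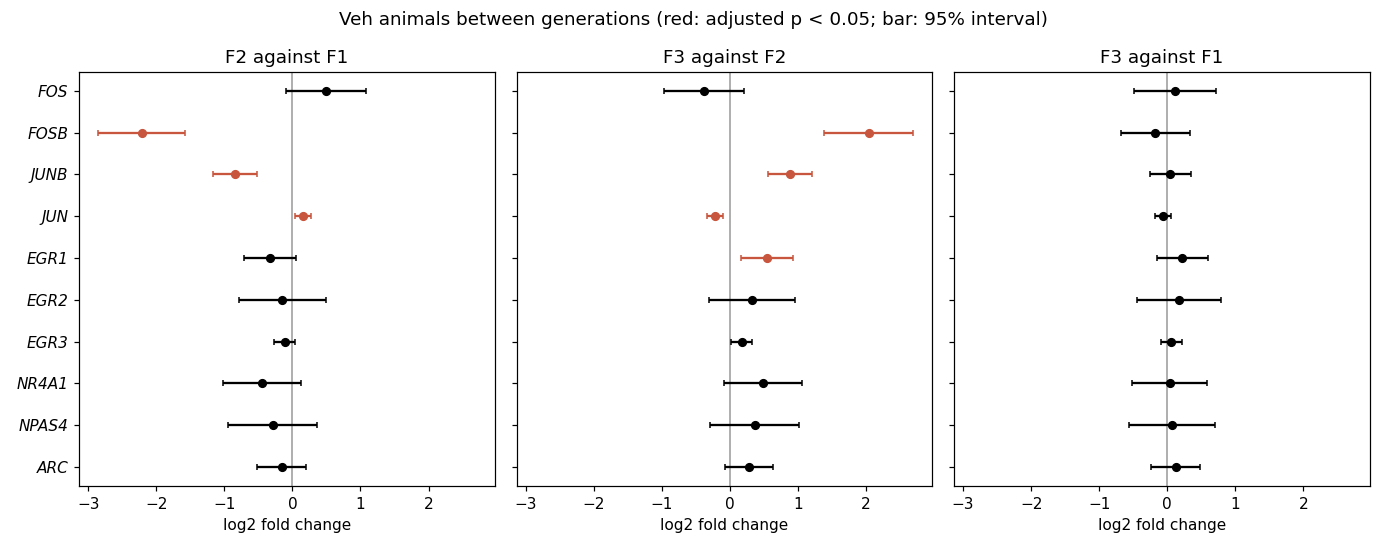
Log2 fold change of each immediate early gene between Veh animals of 2 generations, with 95% intervals, red where the adjusted p was below 0.05. *FOSB* and *JUNB* fall in F2 and return in F3, *JUN* moves by less in the opposite direction, and none of the 10 passes in F3 against F1.

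The members varied widely between animals of the same group. The biological coefficient of variation (BCV), edgeR's estimate of the spread between animals beyond counting error, had a median of 22.4% for the members and 6.96% for all genes in F1, 17.9% and 5.32% in F2, and 27.3% and 6.12% in F3. Because BCV falls with abundance, each gene was also set against the trend at its own level. The median ratio to that trend was 2.26, 2.34 and 3.05 for the members of F1, F2 and F3, against 0.84, 0.82 and 0.84 for all genes, and 9, 8 and 8 of the 10 members lay in the top 10% of all genes by that ratio. In F1 the ratio was 1.5 without sGC replicate 3, with 7 members in the top 10%. In F2 it was 1.79 without Veh replicate 1, with 6 members in the top 10%.

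Among the members in F3, *NR4A1* and *EGR1* had the widest spread for their level, with ratios of 4.42 and 4.17, above 99.9% of genes tested. *FOS* followed at 4.16, and its BCV of 38.4% in F3 compares with 28.6% in F1 and 23.4% in F2. In F3 Veh animals *FOS* spanned 3.65-fold from lowest to highest library, and *EGR2* 4.01-fold. *NPAS4* reached 5.30-fold among F3 sGC animals, where its lowest library held 16 reads. *ARC* had ratios of 3.10, 2.31 and 3.59 over the generations. Its ratio was the highest of the members in F1, and that of *FOS* (3.20) in F2. *JUN* was the exception in every generation, with a BCV of 7.76%, 5.13% and 6.58% and ratios of 1.12, 1.00 and 1.06, and *EGR3* joined it in F2 and F3 (ratios 1.13 and 0.98). In F3 Veh animals the 6 *EGR3* levels lay within 83.7 to 87.5 CPM, while *EGR1* ranged from 95.3 to 207 CPM in the same animals.

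**Figure D4:**
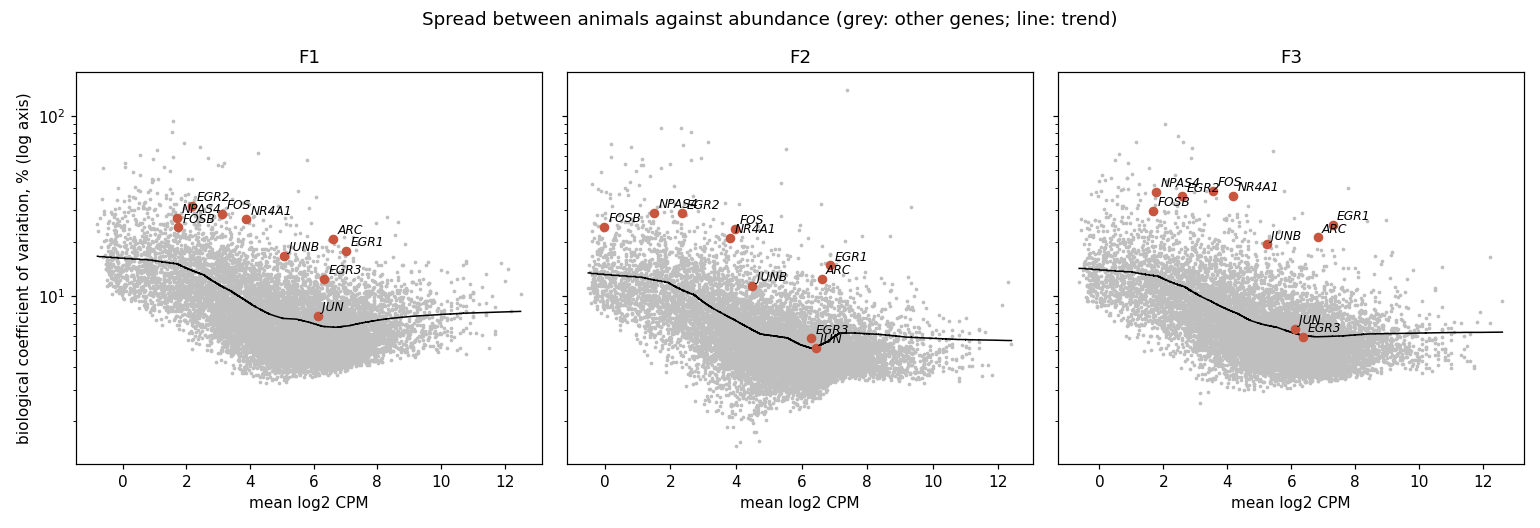
Biological coefficient of variation of every gene tested (log axis, in %) against its mean log2 CPM in F1, F2 and F3, with the abundance trend as a line and the immediate early genes in red. Most members lie well above the trend, while *JUN* in each generation and *EGR3* in F2 and F3 lie close to it, with ratios of 0.98 to 1.13.

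Members deviated together in many animals. After each gene's group mean was removed from its log2 CPM, the first principal component held 66.4% of the variance of the 10 standardized members over the 36 libraries and the second 12.5%. In 16 of 36 libraries at least 9 of the 10 members lay on one side of their group mean. Values for other sets of genes are not given here. F1 sGC replicate 3 had 9 members above and the highest mean standardized deviation, 1.65 SD, and F3 sGC replicate 4 (1.37 SD) and F2 Veh replicate 1 (1.19 SD) followed. At the other end, F3 Veh replicate 1 (-1.39 SD), F3 sGC replicate 1 (-1.15 SD) and F3 sGC replicate 7 (-1.10 SD) each had 9 members below.

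**Figure D5:**
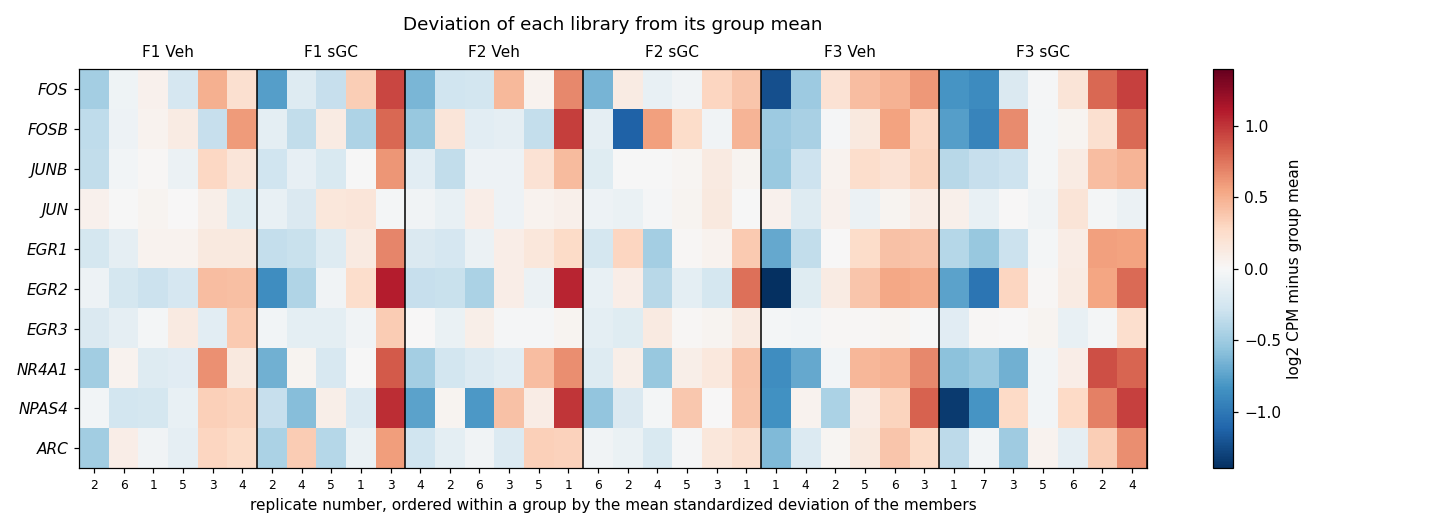
Deviation of each library from its group mean (log2 CPM, red above and blue below) for each immediate early gene, with libraries ordered within a group from the lowest to the highest mean standardized deviation over the members. Whole columns share a colour, as in F1 sGC replicate 3 and F3 Veh replicate 1, while the row of *JUN* stays pale.

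Correlations of these deviations were computed for all 45 pairs of members over 36 libraries, with libraries permuted within their groups (two-sided, 100000 resamples) and adjusted over the 45 pairs. Pearson's r passed an adjusted p of 0.05 in 35 pairs and Spearman's rho in 32. The share of pairs of other genes that would pass was not computed. *JUNB* and *NR4A1* were the closest pair, with r = 0.93 and rho = 0.93, each at a permutation p of 1e-05, the smallest these resamples can give (adjusted 2.65e-05 and 3.00e-05). Without the 2 libraries farthest from the median of *JUNB*, r was 0.92, and within F1, F2 and F3 it was 0.94, 0.78 and 0.98. *FOS* and *JUNB* gave r = 0.92 and rho = 0.92 with the same permutation p values, 0.90 without 2 libraries, and 0.95, 0.71 and 0.98 within generations. *ARC* and *NR4A1*, a synaptic effector and a nuclear receptor, gave r = 0.90 and rho = 0.88 (permutation p = 1e-05 for both), and held at 0.87 without 2 libraries and at 0.89, 0.93 and 0.91 within generations.

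Leaving out *JUN* and *EGR3*, all 28 pairs of the other 8 members passed, with r from 0.44 (*FOSB* and *ARC*, permutation p = 0.0114, adjusted 0.0156, rho = 0.42, adjusted permutation p = 0.0309) to 0.93, and from 0.43 to 0.92 without 2 libraries. These members were set aside after the values were seen. Within generations, 27 of the 28 were above 0 in each, the exception being *FOSB* with *EGR1* in F2 (r = -0.09), where *FOSB* had at most 23 reads per library. *FOSB* with *FOS* was looser than *FOS* with *JUNB*, at r = 0.60 and rho = 0.59 (permutation p = 0.0005, adjusted 0.000938, and adjusted 0.00141 for rho), with 0.54 without 2 libraries and 0.45, 0.38 and 0.82 within generations. None of the 9 pairs with *JUN* passed (r from -0.21 to 0.14, smallest adjusted permutation p 0.394), and within F2 they ran from 0.07 to 0.66. Of the 9 pairs with *EGR3*, 7 passed by r and 4 by rho. Without libraries 32 to 36, those with *FOS* (r = 0.37), *EGR1* (0.35) and *EGR2* (0.38) no longer passed by r (adjusted permutation p = 0.0757, 0.0838 and 0.0658). Against the mean of the other 9 members, r was 0.93 for *FOS* and *JUNB*, 0.89 for *EGR1* and *NR4A1*, 0.87 for *EGR2*, 0.82 for *NPAS4*, 0.77 for *ARC*, 0.66 for *FOSB*, 0.46 for *EGR3* and 0.05 for *JUN*.

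To see what else moved with these genes, *FOS* was compared over the same 36 libraries with the library total and the summed CPM of 11 marker lists. *FOS* did not follow the library total (r = 0.07, permutation p = 0.711, adjusted 0.906, and rho = 0.06, adjusted permutation p = 0.809). It also showed no relation past the threshold with hippocampal neuron markers (r = 0.02, rho = 0.12, adjusted permutation p = 0.976 and 0.614). That sum was mostly *SLC17A7*, with a median of 2025 CPM, where no other marker of the list had a median above 161.7 CPM (*NEUROD2*). The summed level of the 6 endothelial markers was lower where *FOS* was higher, past the threshold by rho and not by r. The values were r = -0.49 (permutation p = 0.00459, adjusted 0.0551) and rho = -0.58 (permutation p = 0.0009, adjusted 0.0108). The markers were not tested singly. That relation was -0.46 without 2 libraries, and -0.34, -0.80 and -0.65 within F1, F2 and F3. The other 9 lists had adjusted permutation p values of at least 0.315. Among them, the blood list held 1 measured gene and the choroid plexus list 2.

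The genes outside the 10 whose deviations most resembled the mean of the members, among 11380, were *DUSP1* (r = 0.83 over 36 libraries), a phosphatase that inactivates MAP kinases, *NR4A3* (0.79), an orphan nuclear receptor, *TRIB1* (0.79), a pseudokinase, *DNAJB1* (0.78), a cochaperone of HSP70, and *CSRNP1* (0.77), a nuclear protein induced by AXIN1. These values are descriptions of libraries that share their depth and dissection with the members. *DUSP1* had means of 13.5 ± 2.92 CPM (SD, n = 5) in F1 sGC and 16.5 ± 1.19 CPM (SD, n = 6) in F1 Veh animals, and changed by -0.29 ± 0.11 on the log2 scale (adjusted p = 0.180). None of these 5 genes passed the threshold for sGC against Veh in any generation. Between Veh animals of F2 and F1 only *DNAJB1* of the 5 passed (-0.34 ± 0.07, adjusted p = 0.000281), and it passed again in F3 against F2 (0.28 ± 0.07, adjusted p = 0.00290).

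Other genes of the pathway were taken from lists of further AP-1 subunits, other early transcription factors, activity-regulated effectors, and the kinases, cofactors and transcription factors upstream. Of 86 genes, 70 were tested. In F1, 1 passed as higher and 1 as lower in sGC animals (2.86% against 2.08% of all genes), and the median log2 fold change of the 70 was -0.02. The gene that rose was *CREB1*, the calcium- and cAMP-responsive factor that binds the promoters of several members, from 20.02 ± 1.63 CPM (SD, n = 6) in Veh to 24.45 ± 1.68 CPM (SD, n = 5) in sGC animals (log2 fold change 0.28 ± 0.07, adjusted p = 0.0494). The gene that fell was *CREM*, a relative of *CREB1* with repressor forms that are themselves induced early, from 9.30 ± 1.18 to 6.91 ± 0.65 CPM (-0.43 ± 0.10, adjusted p = 0.0471). Both adjusted p values lay just under the threshold, and the alternatives were not examined for list genes. The 237 genes past the threshold in F1 fell to 97 without libraries 32 to 36. *CREB1* means in F3 were 24.07 CPM in Veh and 24.11 CPM in sGC animals, near the F1 sGC mean. In F2 no list gene passed (0%). In F3, 3 passed, all lower in sGC animals (4.29% against 5.04% of all genes). They were the secreted granin *SCG2* (-0.26 ± 0.06, adjusted p = 0.0168), the neuropeptide precursor *VGF* (-0.25 ± 0.06, adjusted p = 0.0190) and the MAP kinase kinase *MAP2K1* (-0.12 ± 0.03, adjusted p = 0.0463), while the interneuron markers *GAD1* and *GAD2* were also lower in F3 sGC animals (-0.24 and -0.20, adjusted p = 0.0183 and 0.0116). The 4 further AP-1 genes tested (*JUND*, *FOSL2*, *BATF3* and *MAFK*) passed for sGC against Veh in no generation, with log2 fold changes in F1 from -0.25 (*BATF3*) to -0.01 (*MAFK*). In F1 the median log2 fold change was -0.06 for these 4, for the 14 other early transcription factors -0.06, for the 27 effector genes -0.07, for the 15 kinases and cofactors -0.01 and for the 10 upstream transcription factors 0.06. In F3 the effector genes had a median of -0.06, with 17 of 27 lower in sGC animals. In all 3 generations the 6 astrocyte markers had higher mean levels in sGC animals, and *SLC1A2* passed in F3 (0.24, adjusted p = 0.0201). In the mean sGC effect 5 of the 6 passed as higher, with a median log2 fold change of 0.20, where 8.53% of all genes passed. Their part in the values of the members and list genes was not tested.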

How the data were processed

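Hippocampal RNA of 36 animals was sequenced by the authors as single-end reads and aligned with TopHat2, per the labels. The authors deposited raw counts of reads per gene and library, without normalization, in 1 table per generation. The counting program and the genome build of these tables are not given in the sources used here. Columns with the authors' own comparisons (fold changes, p-values, FDR) and the methylation tables, which hold only such comparisons, were not used.

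Counts were analysed with R 4.3.3 and edgeR 4.0.16. Genes were kept by filterByExpr and libraries scaled by TMM. Groups were compared within each generation, and between generations over all 36 libraries and the genes shared by the 3 tables, with the quasi-likelihood test, Benjamini-Hochberg adjustment over all genes and a threshold of 0.05. CPM and log2 CPM (prior count 2) were taken from the fit over all libraries. Correlations used Python 3.11.15, numpy 2.4.6, scipy 1.17.1 and statsmodels 0.14.6, and figures matplotlib 3.10.9. The fits were tested on simulated data. Alternatives were the likelihood ratio test, DESeq2 1.42.0, DESeq2 size factors, no filter, a joint fit, a replicate block, no TMM factors, a prior count of 0.5, and leaving out libraries. Alternatives for the spread were chosen after seeing the data.

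Totals of 13507449 to 19767033 reads limit precision for *FOSB*, *NPAS4* and *EGR2*. No pair of libraries of the same group agreed within counting error (chi-square per degree of freedom at least 2.12). P-values of group comparisons judge a difference of means against the spread between animals, and those of correlations come from permuting libraries. The spread itself was described without a test. The named genes were the 10 members, list genes past the threshold (at most 6 per list and generation) and the 5 genes with the most similar pattern. *GADD45B*, *CEBPB*, *SLC17A7*, the marker genes and the relation of *FOS* to marker lists were chosen after their values were seen. Members and lists were chosen with earlier results of these data known. Promoter motifs and protein sequences were not analysed here.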

Additional observations from a re-analysis of the deposited data

Results flagged for a closer look

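Of 60 sets of values (10 members in 6 groups), 7 held a library whose gap to its nearest neighbour was large for the range of its group by Dixon's test. For independent, normally distributed values, chance alone would flag about 1 in 20 groups. The members varied together between animals, so the 60 sets are not independent and the 7 cannot be set against that rate. F1 sGC replicate 3 was the high library for *JUNB* (45.2 CPM, next 29.5), *EGR3* (102.1 CPM, next 77.78) and *NPAS4* (6.465 CPM, next 3.293). F2 Veh replicate 1 was the high library for *FOSB* (1.574 CPM, next 0.8578) and *EGR2* (8.964 CPM, next 4.521). F2 sGC replicate 1 was high for *EGR2* (8.902 CPM, next 5.535). *JUN* was low in F1 Veh replicate 4 (66.73 CPM, next 74.92).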

How the results depend on the processing

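No member passed for sGC against Veh in any generation under any alternative, except *JUNB* in F1 without sGC replicate 3 and *NR4A1* in F1 with the replicate block (-0.50, adjusted p = 0.0396, edgeR), so that the number of members past the threshold in F1 was 1 with that block and 0 to 1 with a library left out. *FOSB* and *JUNB* between Veh animals of F2 and the other generations kept their direction and call under every alternative run. The counts of genes past the threshold moved more. In F1 (237) they were 598 by the likelihood ratio test, 658 by DESeq2, 852 with all 36 libraries fitted together, 68 with the replicate block and 97 without libraries 32 to 36, and 56 to 342 with 1 library left out. In F2 (0) they were 6 and 10 by the first 2 of these tests and 0 to 1 with 1 left out, and in F3 (573) 937 by DESeq2, 334 in the joint fit, 171 with the block, 317 without libraries 32 to 36 and 288 to 639. For F2 minus F1 (33) they were 168, 202, 66 without a filter, 4 with the block, 68 without libraries 32 to 36 and 0 to 219, for F3 minus F1 (0) 58, 62, 431 without libraries 32 to 36 and 0 to 454, for Veh F3 against F1 (2) 9, 8 and 0 to 7, and for the mean effect (971) 54 without libraries 32 to 36 and 539 to 1190. The replicate numbers gave no pairing (r of deviations from -0.367 to 0.295 in 17 pairs, 3 of them over 0.1, and 1 best with its own number). The cause of these shifts was not tested.

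With the block, sign changed for *EGR1* in F3 (0.020), *NPAS4* in F3 minus F1 (0.12), *FOS* in F3 minus F2 (0.035) and *NR4A1* in the mean effect (0.0032). Without libraries 32 to 36 it changed for *EGR1* (0.016) and *EGR3* (0.057) in F1, *NPAS4* in F2 minus F1 (-0.046), *EGR1* in F3 minus F1 (-0.066), *FOS* (0.072), *EGR1* (0.054), *EGR3* (0.038) and *NR4A1* (0.049) in the mean effect, and the r of *JUN* with *ARC* (0.015) and *NPAS4* (-0.091). *EGR2* in the mean effect changed sign by the likelihood ratio test (-0.0026) and DESeq2 (-0.0049). With 1 library left out, log2 fold changes that changed sign in F1 ran over *EGR3* -0.14 to 0.048, *ARC* -0.25 to 0.025, *NPAS4* -0.25 to 0.27. In F3 they ran over *FOS* -0.031 to 0.27, *FOSB* -0.27 to 0.011, *JUNB* -0.14 to 0.0076, *EGR1* -0.17 to 0.025, *EGR2* -0.059 to 0.25, *ARC* -0.025 to 0.19, *NR4A1* -0.079 to 0.25, *NPAS4* -0.13 to 0.26. In F2 minus F1 they ran over *NPAS4* -0.11 to 0.42. In F3 minus F1 they ran over *EGR1* -0.030 to 0.30, *EGR3* -0.11 to 0.070, *NPAS4* -0.27 to 0.30. In F3 minus F2 they ran over *FOS* -0.23 to 0.078, *EGR2* -0.44 to 0.074, *ARC* -0.20 to 0.0092, *NPAS4* -0.39 to 0.084. In Veh F3 against F1 they ran over *FOS* -0.0055 to 0.28, *JUNB* -0.017 to 0.14, *NR4A1* -0.11 to 0.20, *NPAS4* -0.14 to 0.21. In the mean effect they ran over *FOS* -0.14 to 0.023, *EGR1* -0.090 to 0.010, *EGR2* -0.13 to 0.10, *EGR3* -0.037 to 0.023, *NR4A1* -0.11 to 0.043, *NPAS4* -0.0074 to 0.21. The median ratio of the members' spread to the trend was 1.32 in F1 and 1.35 in F2 with the block, where 5 and 7 members lay in the top 10% of genes (9 and 8 without it), and 1.5 to 2.41 in F1 with 1 library left out. With 1 library left out this ratio ran from 1.79 to 2.46 in F2 and from 2.76 to 3.21 in F3. Depth limits *FOSB* most, at 5 to 23 reads per F2 library.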
